A study of Homo sapiens with 68 samples.

Results

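The comparison set hnRNP C libraries made with polyacrylamide gel purification (PAGE) against libraries in which that step was left out. It uses 4 of the 68 libraries of the series, chosen by their titles: 2 with PAGE (hnRNPc_50k_lowRNase) and 2 without (hnRNPc_50k_noPAGE). All 4 came from HEK293T cells, an immortalised human embryonic kidney line, and the label of each gives 50000 cells, 0.005 U RNase and the antibody hnRNP C1/2 (4F4). All were made by TLC-CLIP, in which ultraviolet light joins proteins to the RNA they touch, 1 protein is immunoprecipitated and the RNA fragments that come with it are sequenced. The same protocol text stands under every sample, so the omission of PAGE is known from the titles. The labels do not say that the 2 replicates of a group were separate cultures, so the spread between them, and every p-value built on it, may be technical.

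The hnRNP C protein is an abundant nuclear RNA-binding protein that assembles as a tetramer on newly made transcripts and prefers tracts of uridine, many of them in introns and in antisense Alu repeats. In CLIP protocols the gel separates the labelled protein with its crosslinked RNA from free RNA and from complexes of other sizes, and only the excised region goes on to sequencing. The mitochondrial genome lies outside the nucleus and encodes ribosomal RNAs, transfer RNAs and messenger RNAs of the respiratory chain.

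Each library was deposited as a list of peaks, each with a gene identifier, a p-value and a number that was read as the reads over the peak, which the files do not state. The PAGE libraries listed 3268 peaks in replicate 1 and 214849 in replicate 2. The libraries without PAGE listed 441289 and 471844 peaks. Replicate 1 with PAGE therefore stood apart, and its read numbers summed to 49769 against 2484265 in replicate 2, 8440542 and 9368492. The number of sequenced reads is unknown, so the depth behind these lists is unknown too. Genes with a listed peak numbered 1395 and 11411 with PAGE and 14005 and 14269 without. Class shares, counts of genes and gene fits are therefore read with replicate 2 alone as well. Because lists this unequal do not hold comparable shares, class shares are also given after each list was shortened to its 3268 peaks of lowest p ("equal lists"). Equal lists hold all of replicate 1 but only the strongest part of the longer lists. The part of list length in their shares was not tested.

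The files pair no gene identifier with a name or an RNA type, and 0 identifiers could be matched to the gene table at hand. Genes are therefore placed by the span of their listed peaks over all 68 lists, in hg19 coordinates, and grouped into 5 classes: mitochondrial, and nuclear with a span (extent) of up to 200 nt, 201 to 1000 nt, 1001 to 100000 nt and over 100000 nt. Exons, introns and untranslated regions were not distinguished. Within a gene, many listed peaks touched and repeated the same reads, so read sums were also made after touching peaks had been joined and the highest read number kept ("joined"). A gene's reads are given as RPM, reads per 1000000 listed reads of that library and way of counting.

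Mitochondrial RNA held a larger share of the reads in the strongest peaks without PAGE. In equal lists it took 19.9% and 22.4% of the read sum in the 2 PAGE libraries and 57.0% and 57.9% in the libraries without PAGE. The groups did not overlap, and the means were 21.1% ± 1.78 (SD, n = 2) and 57.4% ± 0.661 (SD, n = 2). With 2 libraries against 2, an exact two-sided permutation test cannot go below p = 0.333, which is the value here. After touching peaks were joined, the equal lists gave 11.2% and 14.8% with PAGE against 38.6% and 39.8% without. The mitochondrial share of listed peaks was far smaller, with means of 1.10% with PAGE and 3.30% without in equal lists. Over whole lists its mean without PAGE was 0.0307%, a difference of -0.00326 percentage points from replicate 2 with PAGE.

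Further hnRNP C libraries of 50000 cells widened the comparison. They were made with PAGE and 0.025 U RNase (medium RNase) or without PAGE and with an added RecJ exonuclease digestion. In equal lists the mitochondrial share was 25.5% and 28.0% in the medium RNase libraries and 58.1% and 57.2% in the RecJ libraries. Their whole lists held 304672 and 366417 peaks (medium RNase) and 379280 and 487908 peaks (RecJ). Among the 4 PAGE libraries the share rose in the order of list length, and among the 4 without PAGE it did not. All 4 libraries without PAGE lay above all 4 with PAGE, at 57.5% ± 0.556 (SD, n = 4) against 23.9% ± 3.58 (SD, n = 4), with an exact two-sided permutation p = 0.0286, the smallest possible, and 0.0317 after Benjamini-Hochberg adjustment over the 10 class shares of reads and peaks.

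Over whole lists the mitochondrial share did not separate the groups, and 1 library decided this. It was 19.9% in replicate 1 with PAGE, 3.55% in replicate 2 with PAGE, and 13.2% and 13.04% without PAGE. Replicate 2, with 214849 peaks, stood beside the medium RNase libraries at 3.37% and 3.60%, and the RecJ libraries at 14.1% and 13.04% stood beside the other libraries without PAGE. With replicate 1 the exact permutation test of 4 against 4 gave p = 0.143 (adjusted p = 0.204). Without it, the exact permutation test of 3 against 4 gave p = 0.0286, the smallest possible, and every library without PAGE was higher. Joining touching peaks kept that order among the 7 libraries and lowered the shares to 1.58% in replicate 2 and to 3.51% and 3.52% without PAGE, with replicate 1 at 11.2%.

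**Figure D1:**
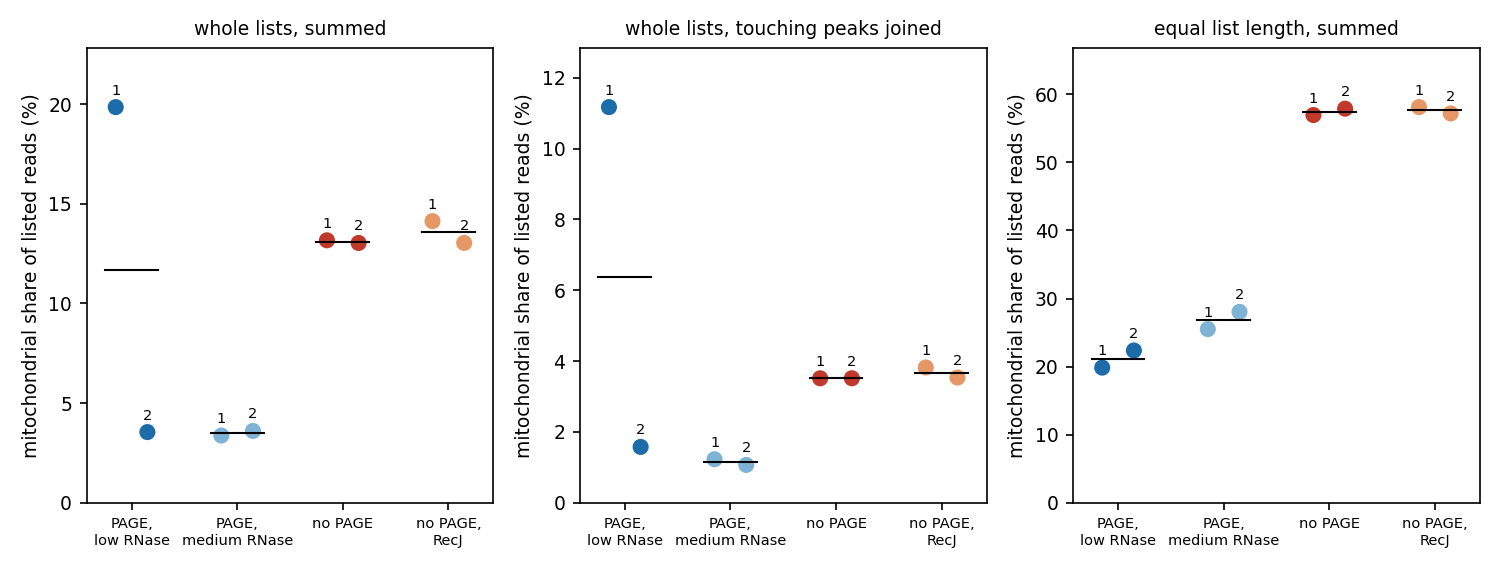
Mitochondrial share of the listed reads in percent (vertical axis) in 8 hnRNP C libraries, with whole lists summed, whole lists joined and equal lists of 3268 peaks. Points are libraries with their replicate number and black lines are group means; in equal lists the 4 libraries without PAGE lie between 57.0% and 58.1%, and the 4 with PAGE between 19.9% and 28.0%.

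The series also holds hnRNP C libraries made from cells that were not crosslinked. Their mitochondrial share over whole lists was 24.6% and 13.5% with PAGE and 22.8% and 15.0% without PAGE, all above the 13.2% and 13.04% of the crosslinked libraries without PAGE. After joining it was 7.15%, 3.98%, 8.28% and 4.55% in the same order, again above the 3.51% and 3.52% of those libraries. In equal lists it was 60.6% and 40.3% with PAGE and 54.7% and 41.7% without, a range that held the crosslinked libraries without PAGE and lay above replicate 2 with PAGE. These libraries differ from the members in crosslinking, and whether that accounts for their shares was not tested.

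Against replicate 2, most plus-strand mitochondrial identifiers had a higher share without PAGE. Of 22 plus-strand identifiers listed in any of the 4 libraries, 17 were listed in replicate 2 with PAGE and in both libraries without PAGE, and 16 of these had a higher joined read share in both libraries without PAGE. Over all genes listed in these 3 libraries, 53.7% were higher in both and 32.2% lower in both. By limma on log2(joined RPM + 10), with replicate 2 alone for PAGE and all genes tested, 15 plus-strand identifiers rose and 1 fell at an adjusted p of 0.05, beside 11.3% of 15266 genes that rose and 4.67% that fell. Since the PAGE group then has a single library, this fit assumes that it varies like the other hnRNP C groups. With both PAGE replicates the direction was lost: of 13 mitochondrial identifiers listed in all 4 libraries, 1 was higher and 1 lower in both libraries without PAGE (median log2 ratio -0.33, joined), beside 8.07% higher and 45.2% lower over all 1387 genes listed in the 4 libraries.

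The identifier with the largest mitochondrial share, ENSG00000210082.2, lies at chrM:1673-3203 on the plus strand. Its joined RPM were 91119 and 13194 with PAGE and 28202 and 27580 without PAGE. The values without PAGE lay between the 2 PAGE replicates. Against replicate 2 alone, it rose by 1.08 on the log2 scale (SE 0.116, adjusted p = 0.00638, limma). In equal lists, its summed RPM were 178565 and 207158 with PAGE and 519886 and 527297 without, and the log2 difference with both replicates was 1.44 (SE 0.0985, adjusted p = 0.00373, limma).

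Other plus-strand identifiers had larger differences against replicate 2. At chrM:10779-12114 the joined RPM were 114 in replicate 2 with PAGE and 595 and 665 without PAGE, a log2 difference of 2.37 (adjusted p = 0.000222, limma), and replicate 1 had 819. At chrM:14748-15874 they were 40.2 against 257 and 241, a log2 difference of 2.37 (adjusted p = 0.00166, limma), and replicate 1 had 521. At chrM:9208-9959 they were 135 against 402 and 408, a log2 difference of 1.51 (adjusted p = 0.00205, limma), and replicate 1 had 943. In each of these, replicate 1 with PAGE was above both libraries without PAGE, and replicate 2 was below both.

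The minus-strand identifiers were few and mixed. Of 4, 3 were listed in replicate 2 and both libraries without PAGE, of which 2 were lower in both and 1 higher in both. Short plus-strand identifiers also went both ways. At chrM:1603-1672 the joined RPM were 25.3 in replicate 2 against 28.1 and 23.9 without PAGE, and at chrM:3231-3279 they were 9.61 against 28.7 and 25.6. At chrM:10003-10057 they were 14.9 against 0 and 0. So few identifiers do not show a difference between the strands. At chrM:5827-5859 the joined RPM were 1092 and 104 with PAGE and 19.2 and 16.7 without PAGE. Both PAGE libraries lay above both others. For replicate 1 this had to hold once it was listed, since its lowest listed read number was 5 of 40277 joined reads. The medium RNase and RecJ libraries had 117 and 139 against 23.8 and 19.9. This identifier fell by 2.02 on the log2 scale against replicate 2 alone (adjusted p = 0.00308, limma), and in equal lists with both replicates the log2 difference was -4.70 (adjusted p = 0.00293, limma). At chrM:14245-14674 the values were 844 and 128 with PAGE and 257 and 177 without, and the log2 difference of 0.70 against replicate 2 did not pass the threshold (adjusted p = 0.113, limma).

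**Figure D2:**
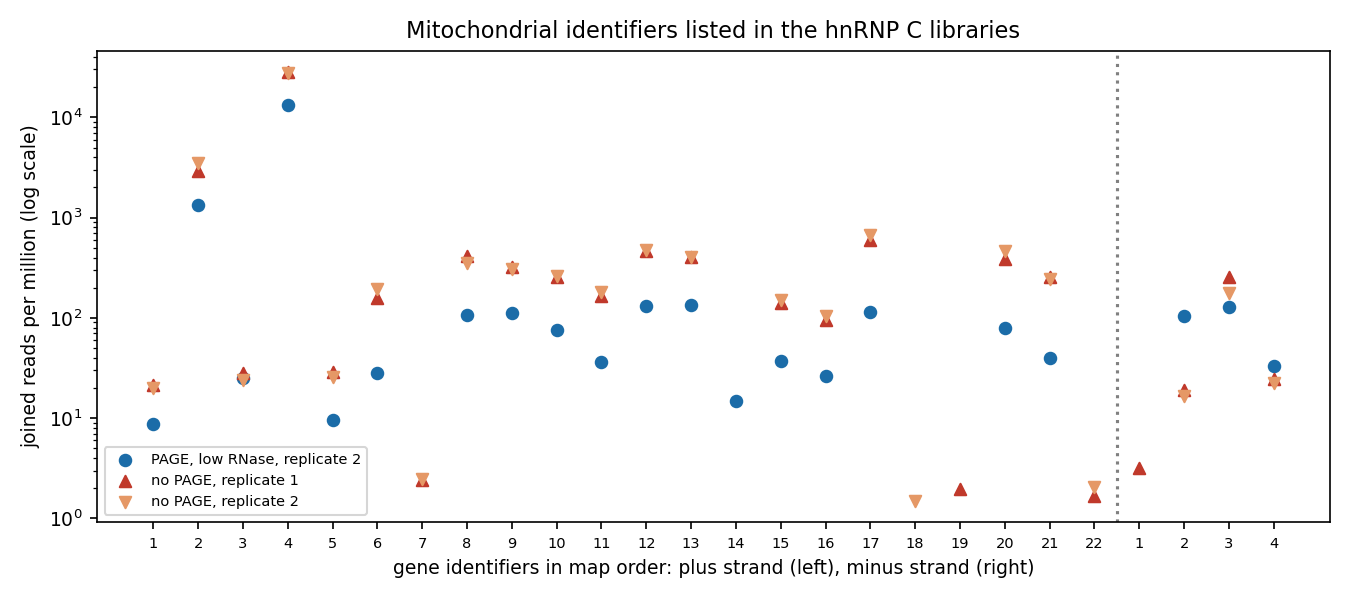
Joined RPM (log scale) of each mitochondrial identifier in map order, plus strand on the left and minus strand on the right, for replicate 2 with PAGE and both libraries without PAGE; a missing point means no listed peak. On the plus strand 16 of the 17 identifiers listed in all 3 libraries are higher in both libraries without PAGE, and on the minus strand 1 of 3.

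Listed peaks also covered more of chrM:1673-3203 without PAGE. They numbered 11 and 15 with PAGE, covering 349 and 377 nt, and 45 and 47 without PAGE, covering 611 and 609 nt. Stretches at chrM:1826-1917 and chrM:2205-2302 in replicate 1 with PAGE had counterparts in all 4 lists. Around chrM:2041-2149 only the libraries without PAGE listed a stretch, with a top read number 46.3% and 45.4% as high as their highest peak in the gene. Around chrM:2760-2900 both libraries without PAGE listed a broad stretch, at 79.1% and 77.3% of their highest peak, while replicate 2 with PAGE listed a few bases at 20.6% and replicate 1 none. At chrM:3127-3182 only the PAGE libraries listed a peak, at 36.8% and 38.9% of their highest. The lists hold peaks past the authors' caller only, so a missing stretch is no measure of zero reads.

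**Figure D3:**
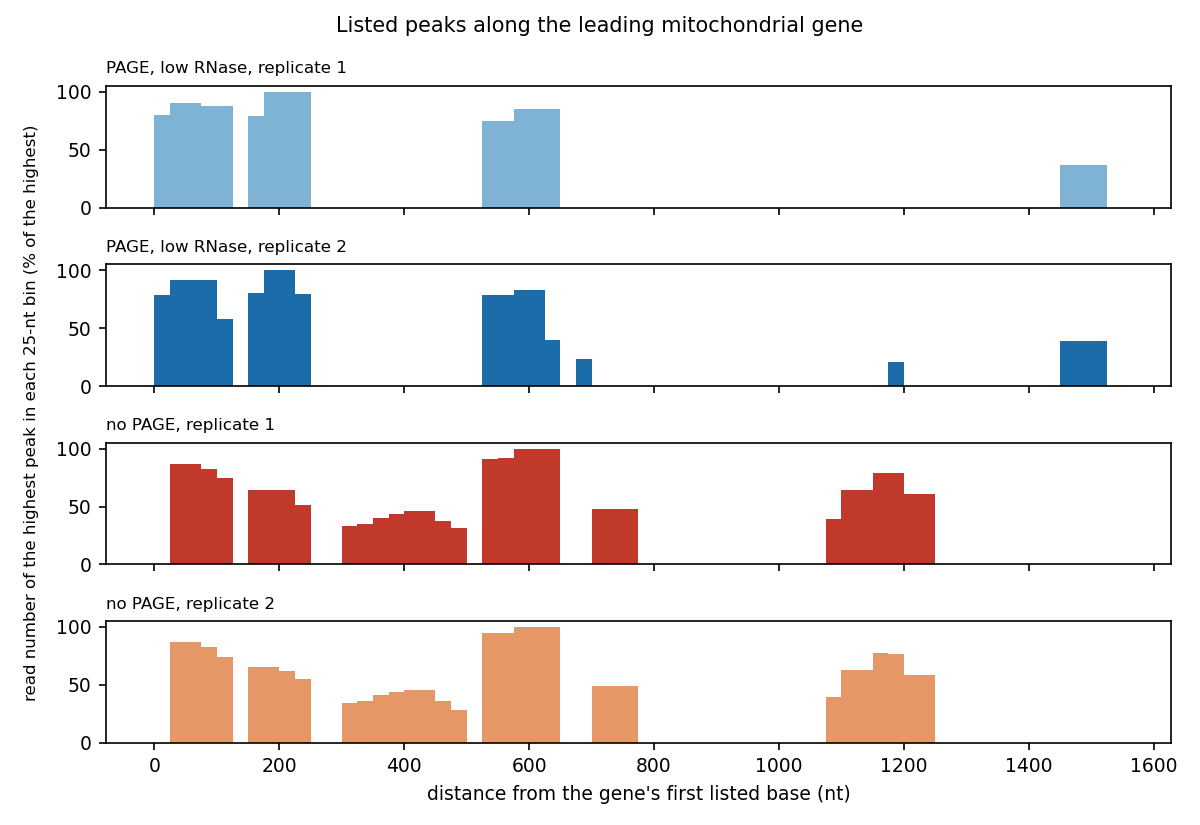
Read number of the highest listed peak in each 25-nt bin along the leading mitochondrial gene, as a percent of the highest in that library, against distance from the first listed base in nt, for the 4 libraries. The libraries without PAGE have stretches that the PAGE libraries do not list or list at 20.6%, and the PAGE libraries share a last stretch at 36.8% and 38.9% that the others do not list.

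Nuclear genes with an extent of up to 200 nt had a higher read share without PAGE in equal lists as a class, and 1 locus held the difference. In equal lists the class took 2.55% and 2.45% of the read sum with PAGE and 8.31% and 6.69% without. With all 8 libraries it was 3.07% ± 0.707 (SD, n = 4) with PAGE and 7.87% ± 1.09 (SD, n = 4) without (exact two-sided permutation p = 0.0286, the smallest possible, adjusted p = 0.0317). These shares count the peaks of an overlapping pair of identifiers on chromosome 11 under both. Without that locus the class took 0.944% and 0.466% in equal lists with PAGE and 0.842% and 0.813% without, the medium RNase libraries had 1.35% and 1.20%, and no difference was detected (exact two-sided permutation p = 0.314, 4 libraries against 4). Over whole lists, joined, the class took 1.79% and 0.309% with PAGE and 0.640% and 0.599% without. There, without that locus, it took 0.844% and 0.2072% with PAGE and 0.2066% and 0.2042% without. All 4 PAGE libraries then lay above all 4 without (exact two-sided permutation p = 0.0286, the smallest possible), replicate 2 by a small margin. In whole lists, summed, without that locus the groups overlapped (exact two-sided permutation p = 0.486). In equal lists 6 genes of the class were listed in replicate 2 and both libraries without PAGE, of which 4 were higher and 1 lower in both, beside 16.1% and 72.7% of all 472 genes. In whole joined lists, of 115 such genes listed in replicate 2 and both libraries without PAGE, 24 had a higher joined share in both libraries without PAGE and 81 a lower one, against 53.7% higher and 32.2% lower over all genes.

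That locus had the largest read share of the class. At chr11:62609123-62609282 (minus strand) the joined RPM were 4742 and 502 with PAGE and 2163 and 1965 without PAGE. Medium RNase libraries had 867 and 638 and RecJ libraries 2344 and 1968. The log2 difference against replicate 2 was 2.02 (SE 0.177, adjusted p = 0.00329, limma). Replicate 1 with PAGE was above all libraries without PAGE, and the other 3 PAGE libraries were below all of them. In equal lists the summed values were 7776 and 12486 with PAGE against 26696 and 31714 without (log2 difference 1.56, SE 0.240, adjusted p = 0.0180, limma).

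Other short loci lay on both sides. They were picked after their values were seen, from genes with at least 20 joined RPM in one of the 3 libraries. At chr2:175422732-175422801 (minus strand) the joined RPM were 10.5 in replicate 2 with PAGE and 92.3 and 85.0 without PAGE, and the medium RNase and RecJ libraries had 3.76 and 4.89 against 83.3 and 73.6. At chr12:45948371-45948446 (minus strand) the values were 1.75 against 32.7 and 32.0. Both were higher than in replicate 2, with log2 differences of 2.27 and 1.85 (limma). The value of 1.75 stood at the lowest read number listed in replicate 2, 4 of 2289100 joined reads. Neither locus was listed in replicate 1 with PAGE. Its lowest listed read number was 5 of 40277 joined reads, so that absence does not show a lower share. At chr1:45196759-45196842 (minus strand) the values were 745 and 91.7 with PAGE and 159 and 180 without, so the PAGE replicates lay on either side.

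Among short loci that fell, chr16:67355589-67355669 (minus strand) had joined RPM of 472 and 47.2 with PAGE and 4.98 and 3.26 without. At chr20:36603600-36603680 (minus strand) they were 372 and 28.0 against 2.87 and 1.63. At chr9:34169782-34169827 (plus strand) replicate 1 listed no peak and replicate 2 had 28.8, against 3.32 and 2.18 without PAGE, and the medium RNase libraries had 65.1 and 66.6 against 0 and 0.899 in the RecJ libraries. The lowest read number listed in replicate 1 was 5 of 40277 joined reads. A locus listed there therefore had to exceed these values without PAGE, and replicate 1 adds no support. All 3 had PAGE values above those without PAGE wherever they were listed with PAGE. Against replicate 2 they fell by 2.02, 1.63 and 1.61 on the log2 scale (adjusted p = 0.00467, 0.00710 and 0.00741, limma).

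**Figure D4:**
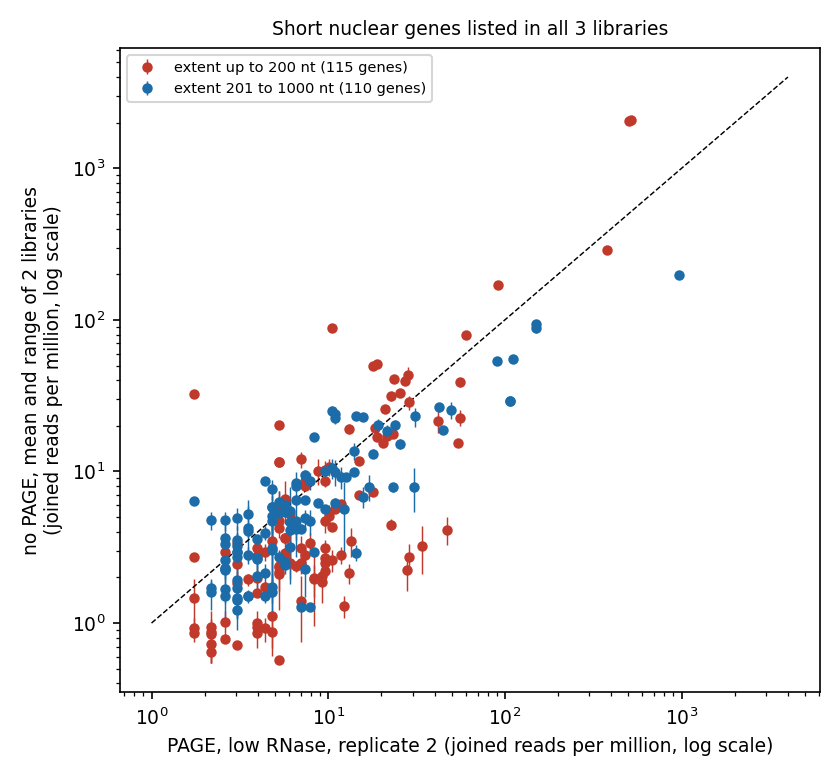
Joined RPM (log scales) of nuclear genes with an extent of up to 1000 nt in replicate 2 with PAGE (horizontal axis) and without PAGE (vertical axis, mean and range of 2 libraries); the dashed line marks equal values. Of 115 genes of up to 200 nt, 81 were lower in both libraries without PAGE, and of 110 genes of 201 to 1000 nt, 66 were. Over all 11019 genes listed in these libraries, 32.2% were lower in both.

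Genes with an extent of 201 to 1000 nt had a lower read share without PAGE over whole lists, joined lists and equal lists. Over whole lists the class took 2.03% and 0.341% of the read sum with PAGE and 0.167% and 0.174% without, and in equal lists 2.03% and 1.53% against 0.190% and 0.225%. All 4 PAGE libraries lay above all 4 without PAGE in both. The exact two-sided permutation p was 0.0286, the smallest possible, with an adjusted p of 0.0714 for whole lists and 0.0317 for equal lists. Of 110 such genes listed in replicate 2 and both libraries without PAGE, 21 had a higher joined share in both libraries without PAGE and 66 a lower one. Over all 11019 genes listed in these libraries, 53.7% were higher in both and 32.2% lower in both. The share of listed peaks went the other way against replicate 2, at 0.0856% with PAGE and 0.117% and 0.118% without, with 0.459% in replicate 1.

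The class had a leading locus in the PAGE libraries, with 15532 and 1669 summed RPM against 163 and 146 without PAGE. Without it, the class took 0.474% and 0.174% of the summed reads with PAGE and 0.150% and 0.159% without, and the 4 PAGE libraries were still above the 4 others (exact two-sided permutation p = 0.0286, the smallest possible). The identifier ENSG00000202198.1, at chr6:52860439-52860748 on the plus strand, had 10155 and 965 joined RPM with PAGE and 208 and 186 without. Both PAGE libraries at 0.005 U RNase were above both libraries without PAGE. It fell by 2.24 on the log2 scale against replicate 2 alone (SE 0.145, adjusted p = 0.00166, limma). The medium RNase libraries, also made with PAGE, had 193 and 212, next to 226 and 177 in the RecJ libraries, and that log2 difference was -0.02 (SE 0.119, adjusted p = 0.979). RNase amount differs between the PAGE groups, and its part in the result was not tested. Another locus of the class, chr1:109642815-109643183 (plus strand), where a pair of identifiers shares its peaks, had 372 and 107 joined RPM with PAGE and 27.7 and 30.2 without, and here the medium RNase libraries at 86.5 and 96.0 were also above the RecJ libraries at 24.5 and 24.9. It fell by 1.59 on the log2 scale against replicate 2 (adjusted p = 0.00329, limma).

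The long nuclear genes, where most peaks lie, had lower summed read shares without PAGE than in replicate 2 with PAGE, by less after joining. Genes with an extent over 100000 nt took 12.04% and 38.4% of the summed reads with PAGE and 33.4% and 33.7% without, and 14.8% and 41.1% against 40.6% and 40.8% after joining. Their share of listed peaks was 25.4% and 48.3% with PAGE and 50.5% and 50.8% without. Genes of 1001 to 100000 nt took 63.5% and 57.2% of the summed reads with PAGE and 51.3% and 51.5% without, and 70.7% and 56.8% against 55.0% and 54.9% after joining. In equal lists both classes had lower read shares without PAGE, 63.5% and 65.6% against 31.5% and 32.2% for the shorter class and 12.04% and 8.03% against 3.04% and 3.00% for the longer one (adjusted exact permutation p = 0.0317 for each, 4 libraries against 4). The shares of the 5 classes add to 100%, so a gain in the mitochondrial share lowers the others.

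Summed reads were gathered in fewer genes among the strongest peaks without PAGE. In equal lists the top 10 genes held 47.0% and 59.4% of the read sum with PAGE and 77.5% and 77.6% without. The number of genes that together held 50% was 16 and 4 with PAGE and 1 in each library without PAGE. Sums repeat the reads of touching peaks, and these values were not computed for equal joined lists. There the whole mitochondrial class took 39.2% on average without PAGE, so no mitochondrial gene held 50%. Over whole lists, the top 10 genes held 47.0% and 10.0% of the summed reads with PAGE and 18.2% and 17.8% without, and after joining 36.3% and 5.66% against 5.44% and 5.31%. Replicate 2 was thus below the libraries without PAGE for summed reads and slightly above them after joining.

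Tested gene by gene with both PAGE replicates, no gene passed. Of 6440 genes with a mean of at least 10 listed peaks, 0 (0%) rose and 0 (0%) fell by read share at an adjusted p of 0.05 (limma on log2(RPM + 10)), and likewise 0 by peak share. At an unadjusted p under 0.05 there were 475 by read share and 869 by peak share. A simulation gave every library the same mean shares, apart from the planted changes, and every gene the same dispersion. On these simulated counts the same fit found 8% of genes changed by 1 on the log2 scale and 62% of those changed by 2. The simulation leaves out the gap in shares between the PAGE replicates. It therefore does not measure the power or the false calls of the real fits, here or with replicate 2 alone. With replicate 2 alone, 916 genes with 0 to 5 peaks there reached the mean of 10 only because of the libraries without PAGE. Their median log2 difference by read share was 0.51, so part of the rises given next follows from the filter. With replicate 2 alone, 1077 of 7302 genes (14.7%) rose and 1271 (17.4%) fell by read share, and 1855 (25.4%) rose and 1228 (16.8%) fell by peak share. With replicate 1 alone, by contrast, 5952 of 6780 (87.8%) rose and 660 (9.73%) fell by read share, and 5641 (83.2%) rose and 1032 (15.2%) fell by peak share. The split with replicate 2 depended on the counting: after joining, 1724 of 7200 (23.9%) rose and 744 (10.3%) fell, and with nuclear genes only, 1639 of 7300 (22.5%) rose and 697 (9.55%) fell. With each interval counted once, 961 (13.6%) rose and 1177 (16.6%) fell, and with library weights on both replicates 1 gene (0.0155%) fell. In equal lists, where few genes had enough peaks, 4 of 54 (7.41%) rose and 32 (59.3%) fell. On simulated counts the fit with replicate 2 alone found 66% of changes of 1 and 100% of changes of 2, and called 15 unchanged genes.

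Among the genes with at least 5 listed peaks in all 4 libraries, 135 in all, 0 had both values without PAGE above both with PAGE, and 109 (80.7%) had both below. Of all 1387 genes listed in the 4 libraries, 5.12% were higher in both and 46.0% lower in both. The genes of this group passed their limit through the short list of replicate 1, so these counts describe the strongest genes of that list.

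Among these 135 genes, the largest ratio was that of ENSG00000126016.9 at chrX:112018231-112084012 (minus strand). Its summed RPM were 1788 and 1099 with PAGE and 417 and 463 without, with 10 and 119 listed peaks against 56 and 79. The lower PAGE value was 2.37 times the higher value without PAGE. It fell by 1.30 on the log2 scale against replicate 2 (SE 0.101, adjusted p = 0.00220, limma, joined). The medium RNase libraries had 788 and 778 joined RPM and the RecJ libraries 531 and 484, a log2 difference of -0.62 (SE 0.0822, adjusted p = 0.00720, limma).

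A gene at chrX:73040560-73072550 (minus strand) had the largest read share of its class. Its summed RPM were 171673 and 37739 with PAGE and 22040 and 22390 without, and the joined values were 147826 and 17534 against 7111 and 6706. Both PAGE libraries were above both others on either count. It fell by 1.34 on the log2 scale against replicate 2 (joined, SE 0.0894, adjusted p = 0.00166, limma), and the medium RNase libraries at 11581 and 11284 were above the RecJ libraries at 7496 and 6825. At chr11:65266513-65273500 (plus strand) the joined values were 36621 and 4376 with PAGE against 2388 and 2321 without, but the medium RNase libraries had 2294 and 2327. At chr4:20254916-20622099 (plus strand) they were 16163 and 6069 against 3464 and 3381, with 4002 and 3738 in the medium RNase libraries. These 2 loci fell against replicate 2 by 0.89 and 0.82 on the log2 scale (adjusted p = 0.00741 and 0.00621, limma), and in both the medium RNase libraries were nearer to the libraries without PAGE than replicate 2 was.

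Well-covered genes differed both ways. By the rule for well-covered genes (a mean of at least 50 listed peaks over replicate 2 and the libraries without PAGE, 2252 genes), 737 (32.7%) had a higher summed read share in both libraries without PAGE and 1273 (56.5%) a lower one, beside 41.4% and 43.9% of all 11019 genes listed in these 3 libraries. The largest increase was that of ENSG00000123636.13 at chr2:160175550-160473103 (minus strand). It had 8 listed peaks in replicate 2 with PAGE and 66 and 81 without, and was not listed in replicate 1. Its summed RPM were 17.7 in replicate 2 against 54.7 and 64.0, and its joined RPM 19.2 against 69.7 and 81.6. The 8 genes with the largest increases had 8 to 15 peaks in replicate 2, so they reached the mean of 50 only through the libraries without PAGE, and their increases are given as a description without a test. For this gene the medium RNase libraries had 46.9 and 53.3 joined RPM and the RecJ libraries 51.9 and 90.6, and that log2 difference of 0.39 did not pass (SE 0.218, adjusted p = 0.268). The 8 largest increases lay between 2.18 and 3.09 fold in summed RPM by this rule and the 8 largest decreases between 1.83 and 2.37 fold.

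The size of the change followed the number of peaks a gene had in replicate 2. The 895 genes with 0 to 5 peaks there had a median log2 difference of 0.67 (joined), but they reached the required mean of 10 peaks only through the libraries without PAGE, so the filter itself favoured higher values there. The 2006 genes with 21 to 50 peaks had a median of 0.06, with 405 that rose and 256 that fell. The 52 genes with over 200 peaks had a median of -0.37, with 0 that rose and 43 that fell. Since the same library gave the peak number and the difference, part of this trend comes with the grouping and the filter, so the same genes were read in libraries that it did not use. In the RecJ minus medium RNase comparison the medians were 0.23, 0.03 and -0.19. Those medians had the same order over a narrower range. The filter admitted the 895 genes with few peaks through libraries without PAGE, and the RecJ libraries also lack PAGE. A rise of these genes in the RecJ minus medium RNase comparison can thus follow from the filter and is no independent check. There, 161 of the 895 genes with few peaks rose and 16 fell, and of the 52 genes with many peaks 0 rose and 32 fell, beside 15.3% that rose and 12.5% that fell over all 7200 genes. The RecJ and medium RNase groups also differ in RNase amount and in the digestion, and the libraries without PAGE have longer lists in both comparisons, so list length and PAGE cannot be told apart here.

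**Figure D5:**
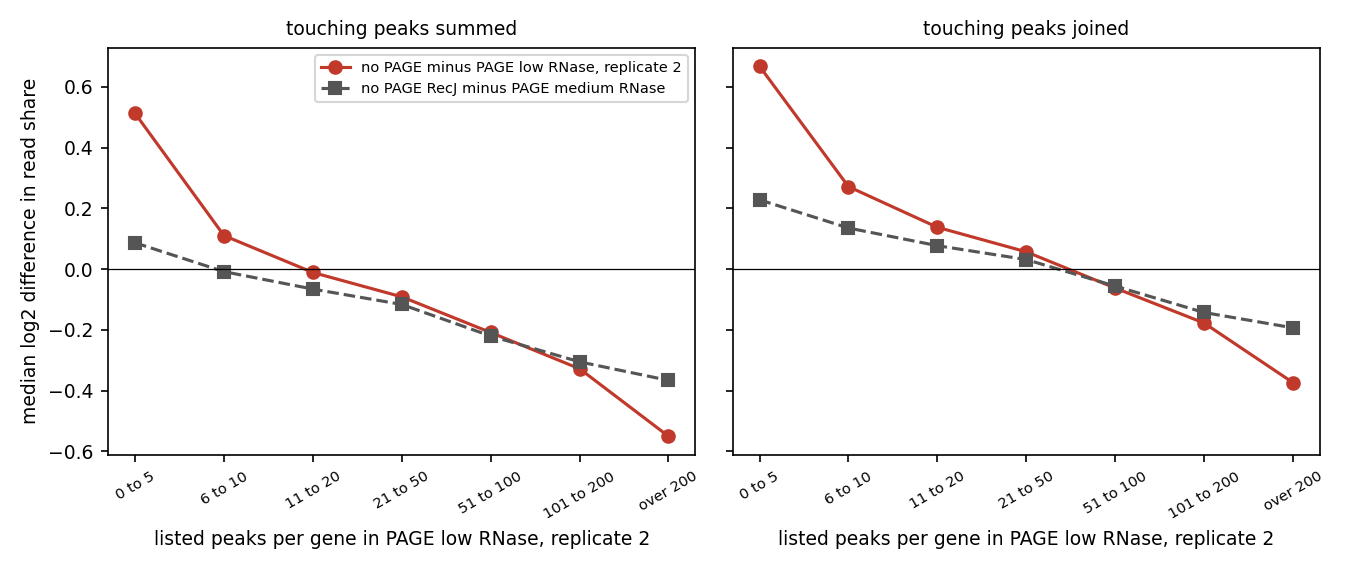
Median log2 difference in read share (vertical axis) of genes grouped by their number of listed peaks in replicate 2 with PAGE (horizontal axis), summed and joined, for no PAGE minus replicate 2 with PAGE and for RecJ minus medium RNase. Joined medians go from 0.67 to -0.37 in the first and from 0.23 to -0.19 in the second.

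Of the genes that rose against replicate 2 (joined), 79.1% had a log2 difference above 0 in the RecJ minus medium RNase comparison. Of the genes that fell, 16.5% did, beside 57.2% of all 7200 genes tested. Some of the genes that rose had passed the filter only through the libraries without PAGE. The comparisons share no library, although all libraries entered 1 fit and share its estimate of the spread. Genes that rose had a median of 11 listed peaks in replicate 2 and 42 in replicate 1 without PAGE, and genes that fell 43 and 51.5.

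The 3 other proteins of the series, hnRNPA1, hnRNPI and RBFOX2, also had more mitochondrial reads without PAGE. Joined mitochondrial shares were 0.568% and 0.529% with PAGE and 5.87% and 5.69% without for hnRNPA1. For hnRNPI they were 0.237% and 0.258% against 1.12% and 0.972%, and for RBFOX2 0.727% and 0.931% against 4.12% and 4.34%. In each of these the groups did not overlap, whereas hnRNP C had 1.58% in replicate 2, 11.2% in replicate 1 and 3.51% and 3.52% without PAGE. At chrM:1673-3203 the effect in hnRNP C, with replicate 2 alone, was smaller than the mean effect in the other proteins by 1.55 on the log2 scale (interaction -1.55, SE 0.153, adjusted p = 0.000170, limma). At chr6:52860439-52860748, hnRNPA1 also had high values, 9418 and 8878 joined RPM with PAGE and 6376 and 6415 without, and the fall in hnRNP C was larger than the mean of the others (interaction -2.02, SE 0.187, adjusted p = 0.000124, limma). At chr11:62609123-62609282 the interaction was -0.39 (SE 0.262) for ENSG00000222328.1 and -0.60 (SE 0.142) for the overlapping ENSG00000133316.10. The pair shares its peaks, so the same sign in both is no independent check.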

How the data were processed

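TLC-CLIP peak lists of HEK293T cells were read as deposited. Each holds gene-assigned peaks with the p-value that the authors' caller gave and, in the peak name, a number taken as the reads over the peak. The submitters' processing notes name bcl2fastq, STAR 2.7.3a, UMI-tools 1.0.1 and hg19. No source at hand states the peak caller's settings. Peaks and read numbers were summed per identifier and scaled to RPM (reads per 1000000 listed reads) or per 100000 listed peaks. No annotation of the build was at hand, so the 11 gene lists written by name and the biotypes could not be applied and extent classes replaced them. Members, lists and rules were chosen with earlier results of these data known.

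Gene shares were tested with limma 3.58.1 in R 4.3.3 (lmFit, eBayes with trend), with pseudocounts of 10 RPM and 1 peak per 100000, over 8 hnRNP C libraries in 4 groups, or 7 without replicate 1 of the PAGE group. The interaction used 16 libraries of 4 proteins. P-values were adjusted by Benjamini-Hochberg. Class shares were compared by exact permutation. Scripts ran in Python 3.11.15 and the gene fit was tested on simulated data. Named genes were the 4 with the largest mean read share per class, the 8 largest ratios each way among genes with at least 5 peaks in each library, and the 8 largest each way with replicate 2 alone among genes with a mean of at least 50 peaks. They are shown in part, and short loci were added after their values were seen. Alternatives were other pseudocounts, no filter, left-out libraries, a replicate block, library weights, equal lists, a p-value limit of 1e-05, joined peaks and each interval counted once.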

Additional observations from a re-analysis of the deposited data

Results flagged for a closer look

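Among the 4 hnRNP C libraries with PAGE, replicate 1 at 0.005 U RNase lay far from the other 3 by Dixon's test in each of the 5 classes, for reads and for peaks. Its read shares were 19.9% mitochondrial, 2.55% for nuclear genes of up to 200 nt, 2.03% for 201 to 1000 nt, 63.5% for 1001 to 100000 nt and 12.04% for over 100000 nt. Its shares of peaks were 1.16%, 0.734%, 0.459%, 72.2% and 25.4% in the same order. Among the 4 libraries without PAGE, RecJ replicate 1 stood apart with a mitochondrial read share of 14.1%, against 13.04% to 13.2% in the other 3. Chance flags about 1 in 20 such groups, and the shares of 1 library are not independent of each other.

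The read share of nuclear genes of 201 to 1000 nt moved in opposite directions in 2 proteins: it was lower without PAGE in both hnRNP C libraries and higher in both RBFOX2 libraries, by 2.12 percentage points on average for RBFOX2. That difference between proteins was not tested. In equal lists RBFOX2 was lower without PAGE, at 8.67% and 8.35% against 10.0% and 10.4%.

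The effect of omitting PAGE differed between hnRNP C and the mean of the other 3 proteins by an interaction term (limma) in part of 6440 genes: 266 had a higher effect in hnRNP C and 9 a lower one. The median interaction over all genes was 1.67 on the log2 scale with both PAGE replicates and 0.40 with replicate 2 alone, so the calls are read against that shift.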

How the results depend on the processing

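Differences in class shares without PAGE minus with PAGE (both replicates, percentage points) depended on how the lists were treated, and the cause was not tested. For mitochondrial reads the difference of 1.40 became -2.86 joined, -0.703 at p below 1e-05 (10.6 with replicate 2 alone), 36.3 in equal lists and 26.2 in equal joined lists. For reads of genes up to 200 nt, 0.278 became -0.431 joined, 5.00 in equal lists, 4.29 in equal joined lists and 1.47 at p below 1e-05 with replicate 2 alone. For 201 to 1000 nt, -1.01 became -0.0961 joined with replicate 2 alone. For 1001 to 100000 nt, -8.98 became -32.7 in equal lists, -22.8 in equal joined lists and -1.80 joined with replicate 2 alone. For over 100000 nt, 8.31 became -7.01 in equal lists, -6.67 in equal joined lists, -0.356 joined with replicate 2 alone and -2.29 at p below 1e-05 with replicate 2 alone. Shares of peaks in equal lists and equal joined lists were 2.20 and 1.23 for mitochondrial (from -0.568; -1.32 at p below 1e-05), 0.979 and 0.676 for up to 200 nt (from -0.317), 5.77 and 4.15 for 1001 to 100000 nt (from -12.8) and -8.95 and -6.03 for over 100000 nt (from 13.8). At p below 1e-05 with replicate 2 alone the last pair were -2.11 and 2.24, and for 201 to 1000 nt joined with replicate 2 alone it was 0.0312 (from -0.155). Leaving out each library moved the read differences over -6.75 to 9.56, -0.738 to 1.29, -1.86 to -0.170, -12.1 to -5.81 and -4.87 to 21.5, and the peak differences over -1.13 to -0.00326, -0.634 to -0.000924, -0.341 to 0.0321, -23.1 to -2.38 and 2.35 to 25.2, from mitochondrial to the longest class; the ends came from the PAGE replicates.

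Genes called by read share (limma, 0 higher and 0 lower with both replicates, also with a replicate block) numbered 4 higher and 32 lower in equal lists, and 0 and 1 with library weights. With replicate 2 alone they were 1724 and 744 joined (1724 and 713 also without the filter), 1046 and 726 at p below 1e-05, 961 and 1177 with each interval once, 1114 and 1222 with a replicate block, 1090 and 1248 with the smaller pseudocount and 1639 and 697 for nuclear genes. By peak share they were 9 and 3 in equal lists and 23 and 15 at p below 1e-05, and with replicate 2 alone 1922 and 1255 joined, 1208 and 689 at p below 1e-05, 1753 and 1156 with each interval once, 2094 and 1424 with a replicate block and 1849 and 1198 with the smaller pseudocount. Leaving out each library gave 0 to 5952 higher and 0 to 1271 lower by reads, and 0 to 5641 and 0 to 1228 by peaks. The highest numbers that rose came when replicate 2 of the PAGE group was left out. This leaves 1 PAGE library with 1395 listed genes, so most genes tested there had no listed peak with PAGE and could only rise. The shared replicate numbers were not taken as pairing, since correlations of the replicate differences between groups ran from -0.00903 to 0.124. The difference from other proteins, 266 and 9, became 123 and 3 with a replicate block, 34 and 1 with the smaller pseudocount, 2655 and 300 joined with replicate 2 alone, 3485 and 771 when the filter was also dropped, and 3628 and 168 without PAGE replicate 1.

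Over the 48 named genes and these settings the log2 difference turned sign 32 times (both replicates unless said). Joined values were -0.31 at chrM:1673-3203 (ENSG00000210082.2), -0.40 at chrM:651-1566 and -0.63 at chr1:45196759-45196842. The next pairs of values leave out first replicate 2 and then replicate 1 of the PAGE group. For the same loci in the same order they were -0.59 and 1.88, -0.63 and 2.11, and -1.01 and 1.69. In that order chrM:9208-9959 had -0.95 and 1.89, the chromosome 11 pair -0.019 and 2.84 and -0.24 and 1.76, chr10:103124607-103124717 -3.54 and 0.35, chr11:2641080-2721226 3.47 and -1.21 and chrX:39909422-40035700 3.34 and -1.04. The last pair had -1.04 and -0.91 joined with replicate 2 alone. At chr22:28374156-29075660 the values were 1.11 and -0.48, with -0.34 joined with replicate 2 alone and -2.77 in equal lists, and at chr17:46626335-46682268 3.77 and -1.02, with -0.82 joined with replicate 2 alone. At chr15:69071043-69113225 the value was 0.29 with replicate 2 of the PAGE group left out and 1.92 at p below 1e-05. At p below 1e-05, 11 more genes turned from lower to higher, at 0.74, 2.92, 0.40, 0.79, 0.18, 3.17, 0.37, 0.61, 2.07, 1.70 and 1.81. The other values kept their sign, 404 on the same side of the threshold and 134 newly past it. Counting each interval once, and every setting that changes 2 choices together, was chosen after seeing the data. Sequencing depth is unknown, so a missing peak in the short list sets no limit on a gene's reads.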
